A study of Bos taurus with 138 samples.

Results

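Fully grown bovine (Bos taurus) oocytes arrested at the germinal vesicle (GV) stage were studied in 2 forms, the mRNA on their polysomes and the mRNA of the whole oocyte. Lysate had been separated on a sucrose gradient into 10 fractions, in which mRNA carrying more ribosomes lies in the heavier fractions. The counts of F8, F9 and F10, the 3 heaviest, were summed within gradient A and within gradient B to give 2 polysome pools from 6 libraries. The transcriptome of whole GV oocytes was sequenced in replicates A, B and C, so that 9 of the 138 libraries of the series enter the comparison. The oocytes were aspirated from antral follicles of slaughterhouse ovaries as cumulus-oocyte complexes, and they were neither matured nor fertilized. They were freed of cumulus cells, exposed to cycloheximide, which holds ribosomes on their mRNA, and stripped of the zona pellucida with protease. MII oocytes, matured in vitro to the second meiotic arrest, and 2-cell embryos, produced by in vitro fertilization, received the same treatment and serve as the nearest comparisons, again with 2 pools and 3 transcriptomes each. Each library was made from many pooled oocytes or embryos. The study describes gradients A and B as biological replicates, from 2 runs of the experiment, and took the oocytes of the transcriptomes from the batches that were fractionated. Which transcriptome shares a batch with which gradient, and the breed, age and number of donor cows, are not given in the sources used here.

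A GV oocyte has a nearly silent genome, and it meets its needs from mRNA stored during growth. Stored mRNA with a short poly(A) tail is kept from ribosomes by proteins bound to its 3' end, and it is recruited to polysomes when cytoplasmic polyadenylation lengthens the tail. Arrest itself rests on cyclic AMP, which keeps CDK1 with cyclin B (maturation promoting factor, MPF) inactive through the kinases WEE2 and PKMYT1, until the phosphatase CDC25B removes their mark. A gene that stands higher in polysomes than in the whole oocyte is therefore commonly read as loaded with ribosomes, and a gene that stands lower as held back.

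The 3 transcriptomes held 9069358 to 11351526 counts, and the 6 libraries of F8 to F10 held 10242213 to 12154199, so that each pool was about as deep as 3 transcriptomes. Over the genes tested, Pearson's r of log2 levels was 0.972 between the 2 pools, 0.988 to 0.992 among transcriptomes and 0.750 to 0.813 between a pool and a transcriptome. The pools and the whole-oocyte libraries also differ in handling. Lysates were cleared by centrifugation before they were loaded, and each fraction was amplified as a library of its own, which makes the amount of RNA in a fraction unknown. Neither step applies to the whole-oocyte libraries, and their effect cannot be told apart from ribosome loading in this contrast. For the lists plotted below and for a part of the genes, values for the whole gradient and against the lighter fractions of the same gradients are therefore given as well, and higher and lower refer to the measured ratio alone.

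All 10 oocyte markers, such as GDF9, BMP15, NLRP5 and the zona genes, were above 10 CPM (a gene's count scaled to library size, with TMM factors) in at least 1 library, and their summed level was 18300 to 27390 CPM in the pools and 18940 to 22010 CPM in the transcriptomes. The 18 cumulus and granulosa markers summed to 1078 to 1144 CPM in the pools and 654 to 800 CPM in the transcriptomes, and FOXL2 and KRT18 were at 0 in all 5 libraries. STAR made up most of that sum, with 882 and 916 CPM in the pools. INHA, the alpha subunit of inhibin, had 13.4 and 19.0 CPM in the pools against 0 to 0.152 CPM in the transcriptomes, and AMH had 6.10 and 9.24 against 0 to 0.456 CPM. Other markers of the list ran the other way, with VCAN at 16.6 and 21.6 CPM in the pools against 44.0 to 46.5 CPM, HAS2 at 21.95 and 9.24 against 27.3 to 37.7 CPM and KRT8 at 13.5 and 17.2 against 20.7 to 24.2 CPM. Both pools lay above all transcriptomes for 6 of the 17 tested and below them for 5. Such a lack of overlap was common, with 5314 and 5234 of all 14612 genes tested. Of the 14 markers of theca, endothelium and blood, CYP17A1, COL1A1, COL3A1, CDH5 and HBB were at 0 in all 5 libraries, while VWF alone gave 290 and 316 CPM in the pools and 76.1 to 106 CPM in the transcriptomes. Fewer cells of a type and less RNA per cell cannot be told apart in such bulk libraries, and the part of these markers in the results was not tested.

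Polysome pools and whole oocytes differed in the level of many genes. Of 14612 genes tested, 3157 (21.6%) were higher and 2487 (17.0%) lower in the pools than in the transcriptome, by the quasi-likelihood test of edgeR with a false discovery rate (FDR) below 0.05 and a fold change (FC) above 2. The genes tested included 508 that were at 0 in all 5 GV libraries. The median difference over all genes was 0.0 on the log2 scale. Without gradient B, 1556 genes were lower. Over all genes tested, called or not, both pools lay above all transcriptomes for 5314 and below them for 5234, so that a lack of overlap was common. The FC exceeded 8 in 1726 of the genes called higher and in 639 of those called lower. Among the genes called higher the median level was 40.4 CPM in the pools and 4.22 CPM in the transcriptomes, and among those called lower it was 14.8 CPM in the pools and 66.7 CPM in the transcriptomes.

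The share of genes called lower grew with the level of a gene in the whole oocyte, while the share called higher did not change steadily. Genes were ranked by transcriptome level into 4 equal bins. Among the 3653 in the highest bin, from 42.3 CPM upward, 41.5% were lower and 10.2% higher in the pools, and the median log2 difference was -1.01. In the second lowest bin, between 0.856 and 7.63 CPM, 31.98% were higher and 5.64% lower, with a median of 0.80. In the lowest bin 20.7% were higher and 4.30% lower, and in the second highest 23.6% and 16.7%. The transcriptome level is also the denominator of the ratio. In the transcriptomes 3 counts equal 0.264 to 0.331 CPM, and the lowest bin ends at 0.855 CPM. Genes of that bin therefore had little room for a lower call. The part of the shared value and of this floor in the trend was not tested. The gene lists below are set beside the shares of all genes tested, not of genes of like level. The part of transcriptome level in the counts of a list was not tested.

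**Figure D1:**
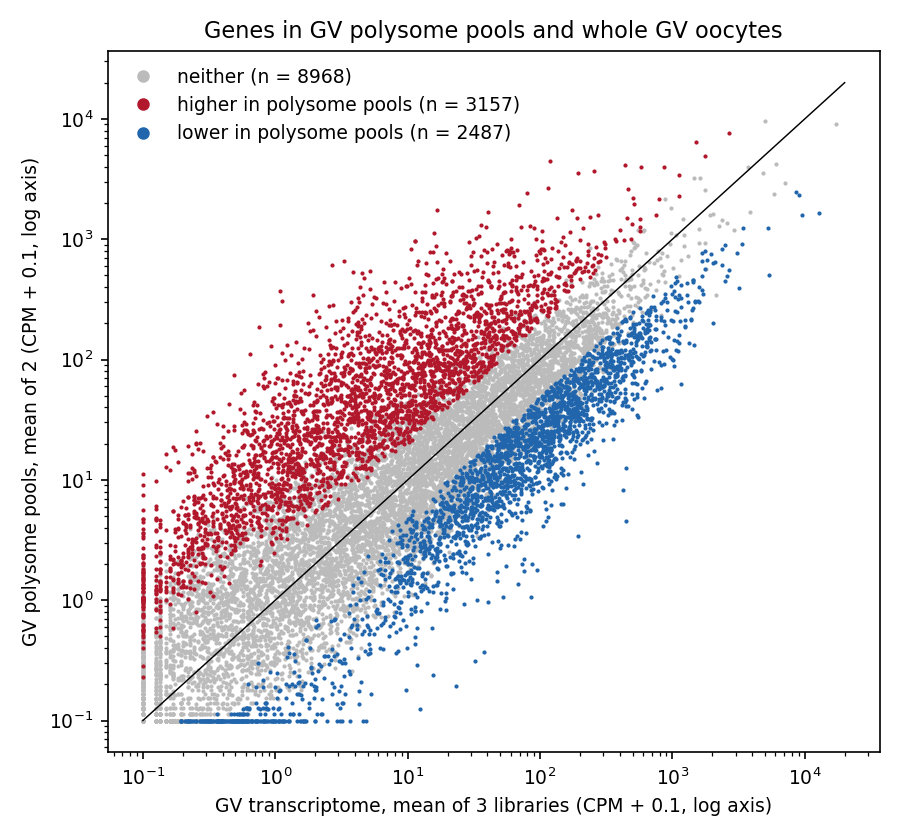
Mean level of each of 14612 genes in the 3 GV transcriptomes (horizontal, CPM + 0.1, log axis) and in the 2 GV polysome pools (vertical, CPM + 0.1, log axis), with the 3157 genes called higher in red, the 2487 called lower in blue and the diagonal as a line of equal level. Red points spread over low and middle transcriptome levels, and blue points gather at high ones.

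The gradient as a whole was compared with the transcriptome in the same way. The sums of all 10 fractions held 4911 genes higher (39.8% of 12340 tested) and 3886 lower (31.5%) than the same 3 transcriptomes. The genes called higher in the pools had a median log2 difference from the transcriptome of 3.19 in the pools and of 3.67 in the gradient sums, where 3086 of them were tested. Against F1 to F7 of the same gradients the pools were higher for 1312 of 13534 genes (9.69%) and lower for 940 (6.95%), and the genes called higher against the transcriptome had a median of -0.40 there. The genes called lower had medians of -2.29 in the pools, -2.43 in the gradient sums and 0.68 against F1 to F7. These 3 comparisons share libraries, so their values are set side by side and not tested against each other. Over all genes the median against F1 to F7 was -0.06, so that the genes called higher against the transcriptome had the lower median within the gradient and those called lower the higher one. With library totals in place of TMM factors the pools were higher than F1 to F7 for 1812 genes and lower for 647.

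Among called genes at 50 CPM or more in the higher group and with no overlap, the largest excess in the pools was that of CHPF, a subunit of chondroitin polymerase. CHPF had 301 and 437 CPM in the pools and 0.911, 0.923 and 1.115 CPM in the transcriptomes, a 374-fold difference (log2 8.55 ± 0.86, SE, FDR 3.2e-08). The rule required both pools to lie above all 3 transcriptomes. Between the pools and F1 to F7 the log2 difference of CHPF was -0.20 (FDR 0.62). MAP1S, a microtubule-associated protein, followed at 294-fold, with 264 and 347 CPM against 0.718 to 1.52 CPM. The remaining 8 of the 10 were ZXDC, the presenilin-like protease SPPL2B, the tRNA methyltransferase subunit TRMT61A, TEPSIN, PIGQ of GPI anchor synthesis, the telomerase reverse transcriptase TERT, the proline catabolic enzyme ALDH4A1 and the fatty acid transporter SLC27A1, at log2 differences between 7.28 and 8.14. TERT, for example, had 61.3 and 86.5 CPM in the pools and 0.203, 0.456 and 0.513 CPM in the transcriptomes.

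The 10 largest deficits were found by the same rule. SNRPD1, a core protein of spliceosomal snRNPs, had 5.12 and 3.81 CPM in the pools and 333, 562 and 442 CPM in the transcriptomes, a 99.6-fold deficit (log2 -6.64 ± 0.69, SE, FDR 5.3e-08). The RNA-binding protein gene RBMX followed with 1.21 and 0.730 CPM against 83.0 to 89.3 CPM, a value that near-identical copies of this gene make uncertain. PSMG1, a chaperone of proteasome assembly, had 10.3 and 6.11 CPM against 368, 497 and 409 CPM, and its log2 difference was -5.69 in the pools and -5.67 in the gradient sums. The other 7 were BCCIP, the nucleolar factors MPHOSPH10 and UTP3, SUCO, the small GTPase RAP1A, ZNF830 and FAF2, at log2 differences between -5.87 and -5.26. In none of these 10 did a pool reach the lowest transcriptome.

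Against the transcriptome, cytosolic ribosomal protein genes were more often lower than higher in the pools. Of 77 cytosolic ribosomal protein genes tested, 24 (31.2%) were lower and 3 (3.90%) higher in the pools, with a median log2 difference of -0.39. The shares of all genes were 17.0% and 21.6%, and those of the highest bin of transcriptome level were 41.5% and 10.2%. Without gradient A, 15 were lower. RPL5, which binds 5S rRNA, had 42.1 and 70.9 CPM in the pools and 332, 605 and 369 CPM in the transcriptomes (log2 -2.945 ± 0.35, SE). RPL8 had 444 and 622 CPM against 173 to 266 CPM and was among the 3 that were higher, at a log2 difference of 1.36 ± 0.26. Against F1 to F7, 16 of the 77 were higher in the pools and 2 lower, with a median of 0.09, where 9.69% and 6.95% of all genes tested were called. Ribosomal protein genes have many near-identical processed copies, among which the quantification could have split reads.

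The 79 mitochondrial ribosomal proteins split, with 16 (20.25%) higher and 32 (40.5%) lower and a median of -0.60, against 21.6% and 17.0% of all genes. MRPS2 stood at 864 and 1043 CPM in the pools and at 24.4 to 36.4 CPM in the transcriptomes, a 33.1-fold excess, whereas MRPL39 had 21.5 and 22.3 CPM against 214, 277 and 241 CPM. Of 53 initiation, elongation and release factors tested, 31 (58.5%) were lower and 6 (11.3%) higher, with a median of -1.215. The elongation factor gene EEF2 was an exception at 150 and 112 CPM against 10.5 to 16.9 CPM (log2 3.25 ± 0.31, SE), and the initiation factor subunits EIF3J and EIF3D had log2 differences of -4.97 and -4.48. Against F1 to F7, 16 of the 53 factors were higher in the pools and 5 lower, with a median of 0.23. Among all genes tested, 9.69% were higher and 6.95% lower there. Of 37 aminoacyl-tRNA synthetases, which charge tRNA with amino acids, 13 were higher and 7 lower than in the transcriptome, led by the valyl enzymes VARS2 and VARS1 at log2 5.75 and 5.35.

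For nuclear genes of oxidative phosphorylation too, the pattern within the gradient differed from that against the transcriptome. Over the 77 genes of complexes I to V tested, 17 (22.1%) were higher and 26 (33.8%) lower than in the transcriptome, with a median log2 difference of -0.205. The shares of all genes were 21.6% and 17.0%, so that the share called higher was near that of all genes. Against F1 to F7 of the same gradients, 35 of the 77 were higher in the pools and 0 lower, with a median of 0.93, where 9.69% and 6.95% of all genes tested were called. For the 10 nuclear genes of complex IV the median was 1.37 against F1 to F7 and 0.39 against the transcriptome, and 7 of them were higher than in F1 to F7. The value against the transcriptome depended on the pool. Without gradient B it was -0.25 with 0 of 10 genes higher, and without gradient A it was 0.83. The counts against the transcriptome for complex I, at 6 higher and 11 lower of 37, became 7 lower without gradient A.

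Members of the list of a single complex differed widely, from log2 -2.60 to 4.01 for complex I and from -2.59 to 3.12 for complex V. NDUFV1, the subunit of complex I that binds NADH, had 563 and 707 CPM in the pools and 35.4 to 44.6 CPM in the transcriptomes (log2 4.01 ± 0.29, SE, FDR 3.8e-10). The delta subunit of ATP synthase, ATP5F1D, had 660 and 643 CPM against 61.6 to 82.6 CPM. In both genes every pool lay above every transcriptome. In the opposite direction, UQCRH of complex III had 9.46 and 10.49 CPM against 88.6, 128 and 129 CPM, and the electron carrier gene CYCS 44.9 and 43.4 CPM against 344, 438 and 489 CPM.

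Of the 13 genes of the mitochondrial genome, which are translated inside mitochondria, 12 were lower in the pools than in the transcriptome and 0 higher, with a median log2 difference of -2.11. CYTB had 147 and 85.8 CPM in the pools and 550, 678 and 634 CPM in the transcriptomes. Without gradient B, 5 were called lower. CYTB was called in every setting tried, while ND3, at log2 -0.63, was the gene of the 13 that was not called. The list had a median of 2.42 against F1 to F7, where 12 of 13 were higher, and a median of -3.24 in the gradient sums.

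Lysosomal genes were more often higher than lower in the pools. Of 54 genes for lysosomal hydrolases and membrane proteins, 20 (37.0%) were higher and 3 (5.56%) lower, against 21.6% and 17.0% of all genes, with a median log2 difference of 1.14, and the median was 1.22 in the gradient sums and 0.12 against F1 to F7. The aspartic protease cathepsin D, CTSD, had 73.0 and 149 CPM in the pools and 2.15, 2.43 and 2.66 CPM in the transcriptomes, a 45.7-fold excess (FDR 4.3e-07). GAA, the acid alpha-glucosidase, had 10.1 and 20.7 CPM against 0.101 to 0.308 CPM. Of the 23 subunits and partners of the V-type proton ATPase, which acidifies lysosomes, 8 were higher and 6 lower.

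Enzymes of glycolysis and the citrate cycle had 12 genes higher and 6 lower of 33, with a median of 0.97. ALDOA, the aldolase of glycolysis, had 344 and 389 CPM in the pools and 14.6 to 20.4 CPM in the transcriptomes (log2 4.35 ± 0.365, SE), and it was also lower in the pools than in F1 to F7 (log2 -1.76, FDR 0.0048). LDHA, lactate dehydrogenase A, ran the other way with 826 and 712 CPM against 3228, 3030 and 2949 CPM. The 19 enzymes of cholesterol synthesis divided into 5 higher and 4 lower, 1 of these without gradient B. The 5 and 4 were 26.3% and 21.05% of the list, near the 21.6% and 17.0% of all genes. MVD, mevalonate diphosphate decarboxylase, had 208 and 232 CPM against 3.90 to 6.30 CPM. The methylsterol oxidase MSMO1 had 41.7 and 36.0 CPM against 399, 411 and 678 CPM. Among 25 antioxidant enzymes 4 were higher, with the selenoprotein genes TXNRD2 and GPX1 at log2 3.76 and 2.49, and 6 were lower, 3 of them without gradient A, among them the mitochondrial peroxiredoxin PRDX3 at -2.21.

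Against the transcriptome, the secretory pathway and protein turnover leaned to the lower side. Among all genes tested, 17.0% were lower and 21.6% higher in that comparison. Against F1 to F7, 9.69% were higher and 6.95% lower. Of 41 genes of the ER translocon, signal peptidase and glycosylation, 19 (46.3%) were lower and 5 higher, with a median of -1.02. Against F1 to F7, 12 of the 41 were higher in the pools and 2 lower, with a median of 0.67. The lumenal chaperone calreticulin, CALR, had 3.38 and 4.68 CPM in the pools and 131, 74.4 and 108 CPM in the transcriptomes, a 25.9-fold deficit, and it was lower than in F1 to F7 as well (log2 -1.93, FDR 0.014). Of 46 proteasome subunits and assembly factors 20 (43.5%) were lower and 5 higher, and the list had a median of 0.13 against F1 to F7. PSMA3, a subunit of the core particle, had 104 and 107 CPM against 788, 1119 and 963 CPM (log2 -3.18 ± 0.35, SE, FDR 1.3e-07). Of 44 chaperones, 16 were higher and 5 lower in the pools than in F1 to F7, with a median of 0.68. Against the transcriptome 17 were lower and 6 higher, and the members pointed both ways. HSP90AA1 had 90.9 and 84.0 CPM against 951, 1197 and 960 CPM, while HSPA1A, whose reads can be shared with a near-identical neighbour, had 812 and 840 CPM against 71.2 to 140 CPM. The USP deubiquitinases divided into 12 (25.5%) higher, with USP5 at log2 6.03, and 16 (34.0%) lower. Their median was -0.93, and -0.62 when gradient A was left out.

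**Figure D2:**
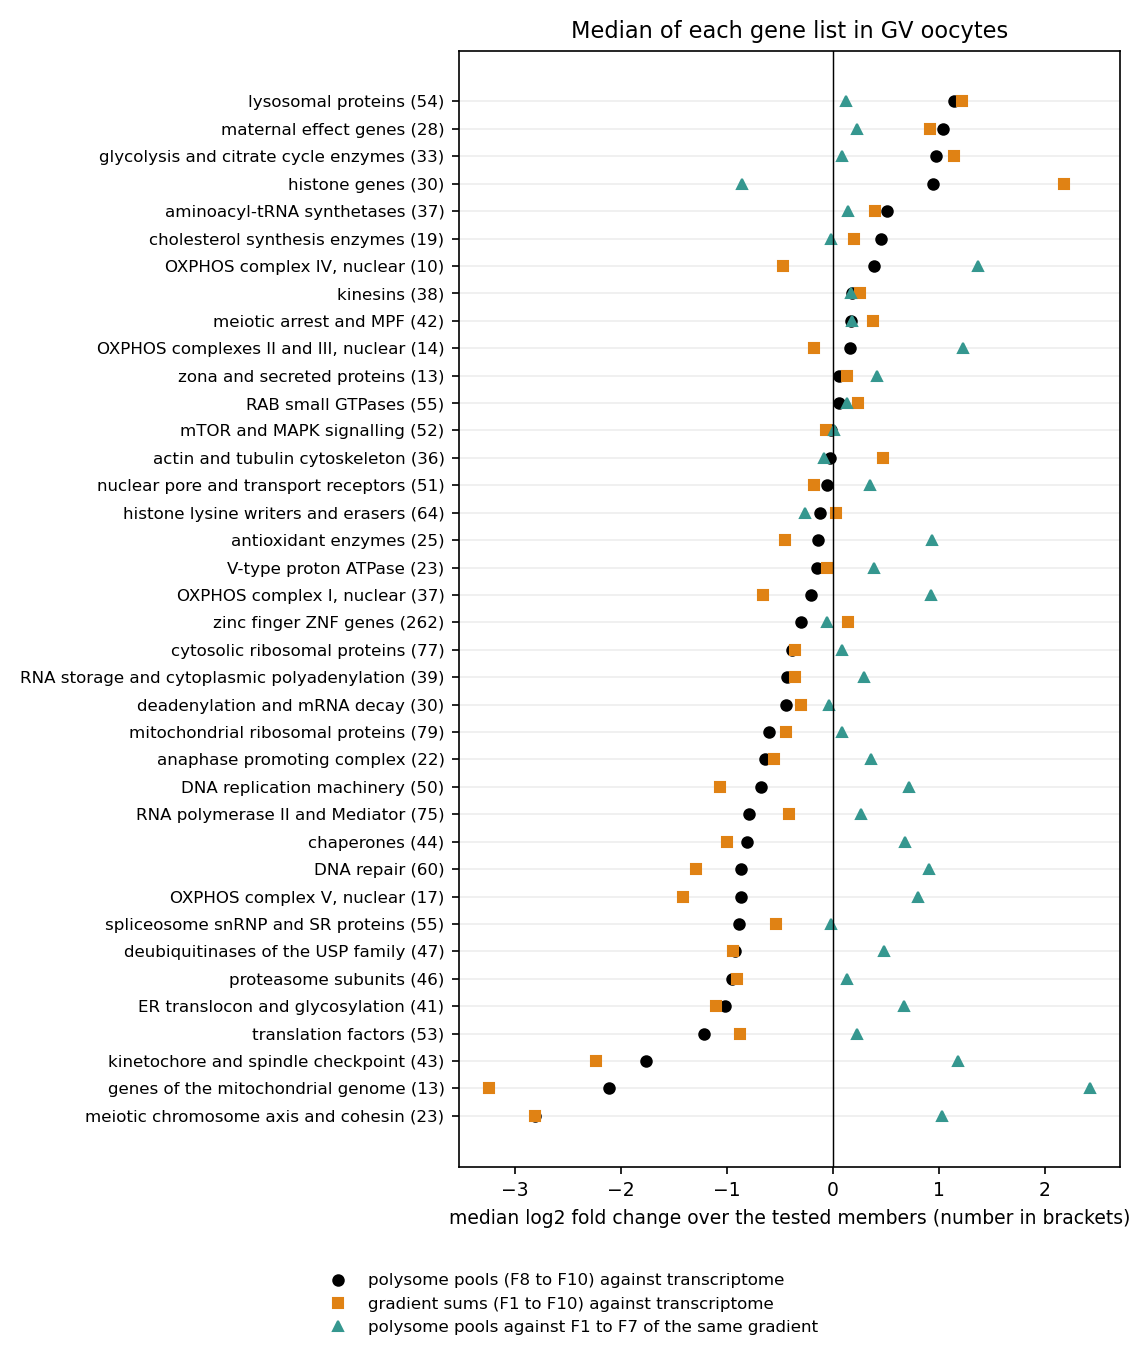
Median log2 fold change of 38 gene lists (number of tested members in brackets) for GV polysome pools against the transcriptome (circles), sums of F1 to F10 against the transcriptome (squares) and pools against F1 to F7 (triangles). Circles and squares lie close together for most lists, while triangles of the lists at the bottom lie to the right of 0, at 2.42 for genes of the mitochondrial genome.

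Regulators of meiotic arrest were found on both sides. Of 42 cyclins, kinases and phosphatases of arrest and MPF, 10 (23.8%) were higher and 10 (23.8%) lower (6 without gradient B), close to the 21.6% and 17.0% of all genes, with a median of 0.17. MOS, the kinase that activates MAPK in meiosis, had 3780 and 4131 CPM in the pools and 568, 625 and 537 CPM in the transcriptomes, a 6.86-fold excess (log2 2.78 ± 0.605, SE, FDR 7.0e-04). Both pools exceeded all transcriptomes, but between the pools and F1 to F7 the log2 difference of MOS was -0.84 (FDR 0.012), below the FC threshold.

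Of the kinases and phosphatases that act on CDK1, those of opposite action were both higher. PKMYT1, which inhibits CDK1, had 224 and 286 CPM in the pools and 1.42, 1.85 and 2.505 CPM in the transcriptomes, a 131-fold excess. CDC25B, which activates it, had 255 and 282 CPM against 20.1 to 33.8 CPM, a 9.57-fold excess. Against F1 to F7 the log2 differences of PKMYT1 and CDC25B were -0.02 and -0.08, and neither passed the test. Pools and transcriptomes of both genes were far apart. The oocyte kinase WEE2, a further inhibitor of CDK1, had 197 and 166 CPM against 534, 387 and 507 CPM, a call at FDR 0.041 that was lost without gradient A, gradient B, transcriptome A or transcriptome C. CDC25C was lower at log2 -1.335 ± 0.32 (SE, FDR 0.0018). WEE2 was also lower in the pools than in F1 to F7 (log2 -1.52, FDR 0.010).

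CDK1, the catalytic subunit of MPF, had 40.4 and 55.0 CPM in the pools and 327, 412 and 384 CPM in the transcriptomes, a 7.845-fold deficit (log2 -2.97 ± 0.39, SE, FDR 1.5e-06). Its log2 difference was -3.26 in the gradient sums and 0.67 against F1 to F7 (FDR 0.11). CCNB1 had 1076 and 785 CPM against 1651, 1479 and 1643 CPM, and CCNB2 794 and 661 against 1163, 1634 and 1139 CPM, both below the FC threshold at log2 -0.77 and -0.85. For CCNB3, at 570 and 695 CPM against 782, 642 and 735 CPM, the groups overlapped. Whether CDK1 differs from the cyclins in loading was not tested.

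Regulators of phosphatase PP2A were on both sides. ARPP19, which inhibits PP2A once MASTL phosphorylates it, had 15.0 and 12.5 CPM in the pools and 206, 254 and 349 CPM in the transcriptomes, a 19.6-fold deficit, while its paralog ENSA had 205 and 262 CPM against 108 to 118 CPM. The call for ENSA was lost without gradient B, with DESeq2 and with other sets of fractions. The PP2A scaffold gene PPP2R1A had 369 and 501 CPM against 10.8 to 19.9 CPM, a 28.2-fold excess. MASTL itself, at 66.8 and 79.2 CPM against 90.5 to 111 CPM, was not called (FDR 0.56).

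Mitotic kinases varied. PLK1 was higher at 1161 and 1201 CPM against 54.6, 104 and 151 CPM (log2 3.52 ± 0.44, SE), and AURKB at 648 and 614 CPM against 202 to 265 CPM, whereas AURKA had 4528 and 3973 CPM against 5936 to 6310 CPM and was not called (FDR 0.30). BORA, the activator of AURKA and PLK1, was lower at log2 -1.76 ± 0.36. In the cyclic AMP pathway, the receptor gene GPR3, which keeps cyclic AMP high, had 38.6 and 38.5 CPM against 1.72 to 5.16 CPM, and this call was lost without gradient B, transcriptome B or transcriptome C. The phosphodiesterase gene PDE3A, which degrades cyclic AMP, had 11.9 and 8.89 CPM against 21.7 to 29.99 CPM and was not called (FDR 0.26), and neither were ADCY3 and PRKACA. The regulatory subunit PRKAR1A was higher at log2 1.34 ± 0.25.

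Components of the anaphase promoting complex and its regulators divided into 6 (27.3%) higher and 9 (40.9%) lower of 22, against 21.6% and 17.0% of all genes. Their median log2 difference was -0.645, with -0.70 without gradient A and -0.495 without gradient B. The cullin-like subunit ANAPC2 had 388 and 489 CPM in the pools and 3.28 to 8.58 CPM in the transcriptomes, a 67.0-fold excess, and the activator CDC20 had 1145 and 1327 CPM against 172 to 263 CPM. Separase, ESPL1, stood 16.0-fold higher. Its inhibitor securin, PTTG1, had 2201 and 2428 CPM against 6924, 11520 and 8496 CPM, a 3.88-fold deficit (FDR 0.0033), and it was higher in the pools than in F1 to F7 (log2 1.27, FDR 0.0056). The inhibitor of the complex FBXO5 was lower too, at 282 and 228 CPM against 936, 1097 and 1108 CPM, while FBXO43 was not called (FDR 0.66).

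The lists with the lowest medians were those of the chromosome axis, the mitochondrial genome and the kinetochore. Of 43 kinetochore and spindle checkpoint genes, 25 (58.1%) were lower and 3 (6.98%) higher, with a median log2 difference of -1.77 against the transcriptome and -2.24 in the gradient sums. Against F1 to F7, 24 of the 43 were higher in the pools and 1 lower, with a median of 1.18. Among all genes tested, 9.69% were higher and 6.95% lower there. SGO2, the shugoshin that protects cohesin, had 13.9 and 10.3 CPM in the pools and 116, 172 and 158 CPM in the transcriptomes, and it was higher in the pools than in F1 to F7 (log2 2.00 ± 0.43, SE, FDR 0.014). CENPM stood apart at 243 and 253 CPM against 8.82 to 14.3 CPM. Of 23 meiotic axis and cohesin genes tested (of 24 in the table), 10 were lower and 1 higher, the cohesin subunit STAG3, with a median of -2.82. Of 38 kinesins 7 (18.4%) were higher and 5 (13.2%) lower, near the 21.6% and 17.0% of all genes.

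Maternal effect genes were found on both sides. Of 28 tested of 30 in the table, 10 (35.7%) were higher and 5 (17.9%) lower (3 without gradient A), against 21.6% and 17.0% of all genes, with a median log2 difference of 1.04. Without any 1 of the 5 libraries, 7 were higher. The 5 members tested here of the subcortical maternal complex, which lies beneath the membrane and which the embryo needs for its first divisions, were all called higher. NLRP5 had 2100 and 2703 CPM in the pools and 98.3, 75.7 and 63.8 CPM in the transcriptomes, a 30.3-fold excess (FDR 1.8e-04). PADI6 had 3155 and 5772 CPM against 142, 81.6 and 134 CPM, and TLE6 had 500 and 1160 CPM against 38.3 to 47.8 CPM. OOEP was higher at log2 1.56 ± 0.36, and KHDC3L at 2.48 ± 0.93, a call that was lost without any 1 of the 5 libraries. Within the gradient NLRP5, PADI6 and TLE6 did not pass the test between heavy and light fractions, with log2 differences of -0.26, 0.19 and 0.70.

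Other maternal genes were lower. DPPA3, which protects maternal methylation in the zygote, had 382 and 400 CPM in the pools and 2591, 3130 and 3815 CPM in the transcriptomes, an 8.13-fold deficit. NPM2, a histone chaperone of the oocyte nucleus, had 64.9 and 61.3 CPM against 923, 1417 and 1122 CPM, an 18.3-fold deficit (FDR 0.0036). Against F1 to F7, DPPA3 was higher in the pools (log2 1.26, FDR 0.0076), while NPM2 had a log2 difference of 0.025 (FDR 0.96). Among transcription factors of the oocyte, NOBOX was higher at 477 and 537 CPM against 8.41 to 17.7 CPM, LHX8 was lower at 18.2 and 31.5 CPM against 95.5 to 159 CPM (a call lost without gradient A), and FIGLA overlapped at 223 and 336 CPM against 217 to 262 CPM. DNMT1 and UHRF1, which maintain DNA methylation, had log2 differences of 0.01 and 0.19 with overlapping groups.

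Zona and secreted proteins differed from gene to gene. ZP3 had 5711 and 9633 CPM in the pools and 3199, 2210 and 2664 CPM in the transcriptomes (log2 1.51 ± 0.40, SE, FDR 0.0041), a call that was lost without gradient B. ZP2 had 1021 and 1437 CPM against 4970, 5947 and 4844 CPM (log2 -2.10 ± 0.71, FDR 0.022), a call that was lost without either gradient. Between the pools and F1 to F7 the log2 differences were 0.97 for ZP3, below the FC threshold, and 1.11 for ZP2. ZP4 was not called (FDR 0.21). The cortical granule protease gene ASTL, whose product cleaves ZP2 after fertilization, had 2799 and 4310 CPM against 132 to 261 CPM, an 18.5-fold excess. The growth factors GDF9, at 864 and 1503 CPM against 2231 to 3370 CPM, and BMP15, at 1332 and 1889 CPM against 1533 to 2432 CPM, were not called (FDR 0.30 and 0.79), and the groups overlapped for BMP15.

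**Figure D3:**
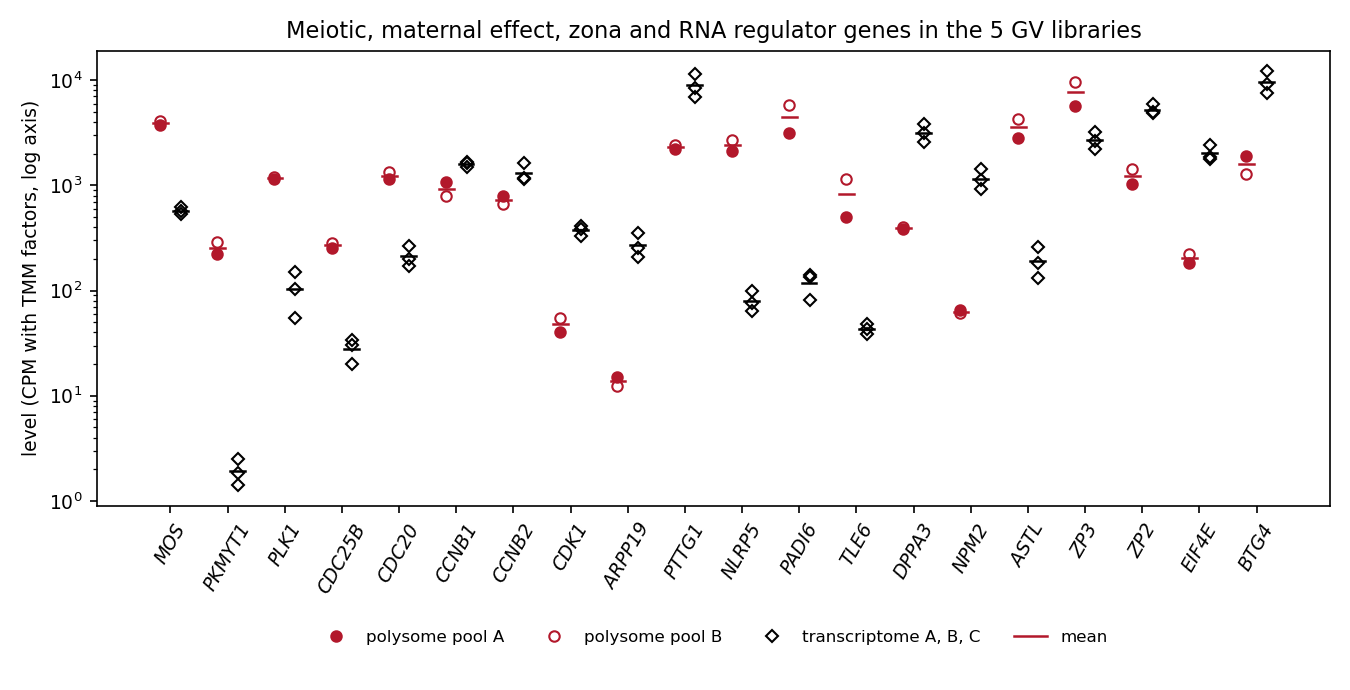
Level of 20 named genes (CPM with TMM factors, log axis) in polysome pools A and B (circles) and in transcriptomes A, B and C (diamonds) of GV oocytes, with lines at the means. Pools lie above all transcriptomes for MOS, PKMYT1, PLK1, CDC25B, CDC20, NLRP5, PADI6, TLE6, ASTL and ZP3 and below them for the other 10 genes.

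Proteins that store mRNA and lengthen its tail were coded by genes on both sides. Of 39 tested, 11 were higher and 8 lower, with 6 higher without gradient B and 13 lower when the 5 GV libraries were fitted alone. The 11 and 8 were 28.2% and 20.5% of the list, against 21.6% and 17.0% of all genes. The poly(A) polymerase-like genes TENT5B and TENT5C were higher, TENT5B at 1627 and 2235 CPM against 54.8, 55.8 and 98.2 CPM (log2 4.79 ± 0.52, SE). The embryonic poly(A)-binding protein PABPC1L was higher at 54.9 and 95.1 CPM against 1.825 to 5.62 CPM, and its somatic relative PABPC1 lower at 37.4 and 30.4 CPM against 61.7 to 125 CPM. SYMPK and CPSF1 of the polyadenylation complex were higher at log2 4.49 and 3.94, while the canonical poly(A) polymerases PAPOLA and PAPOLG and the cytoplasmic TENT2 were lower at -1.31, -1.60 and -1.135.

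The cap-binding protein gene EIF4E was 9.99-fold lower, with 184 and 220 CPM in the pools and 1791, 1855 and 2412 CPM in the transcriptomes, and it was higher in the pools than in F1 to F7 (log2 1.41, FDR 0.0084). Its oocyte paralog EIF4E1B, with 34.9 and 49.4 CPM against 109 to 138 CPM, was not called (FDR 0.27). The germ cell regulators DAZL, at 20.6 and 17.8 CPM against 61.5 to 99.9 CPM, and DDX4, at 19.0 and 16.5 CPM against 65.1 to 77.8 CPM, lay below all transcriptomes but were not called either (FDR 0.17 for both).

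Of 30 genes of deadenylation and decay, 11 (36.7%) were lower and 7 (23.3%) higher, against 17.0% and 21.6% of all genes. Their median log2 difference was -0.45, and -0.20 without gradient B. BTG4, which brings the CCR4-NOT deadenylase to maternal mRNA, had 1908 and 1282 CPM in the pools and 7515, 12110 and 9158 CPM in the transcriptomes (log2 -2.59 ± 0.995, FDR 0.041), and the call was lost without any 1 of the 5 libraries. The terminal uridylyltransferase TUT7 was lower at 4.19 and 5.51 CPM against 94.7, 137 and 110 CPM, and its relative TUT4 at log2 -2.93, which was not kept without gradient A, gradient B or transcriptome A. ZFP36 and ZFP36L2, which bind AU-rich elements, were higher at log2 3.59 and 3.88.

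Nuclear functions had members on both sides. Of 55 spliceosome genes, 23 (41.8%) were lower and 11 higher, with a median of -0.89, and SF3A2 stood at the upper end with 106 and 115 CPM in the pools against 2.05 to 3.65 CPM. Of 75 genes of RNA polymerase II, its general factors and Mediator, 29 were lower and 18 higher, with MED15 highest at log2 5.895. Replication genes had 18 of 50 lower, among them ORC4 at 50.3 and 44.6 CPM against 488, 632 and 703 CPM, and 11 higher, led by LRWD1 and the licensing factor CDT1 at log2 5.17 and 4.98. Geminin, GMNN, which inhibits CDT1, was lower at 53.3 and 52.5 CPM against 320, 488 and 391 CPM. Of 60 DNA repair genes 19 (31.7%) were lower and 14 (23.3%) higher, against 17.0% and 21.6% of all genes. XRCC3 stood at 336 and 389 CPM against 5.64 to 7.97 CPM and MRE11 at 18.4 and 6.49 CPM against 118 to 180 CPM. Against F1 to F7, 20 of the 60 were higher in the pools and 0 lower, with a median of 0.90. Among all genes tested, 9.69% were higher and 6.95% lower there.

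Of 30 histone genes 13 (43.3%) were higher and 4 (13.3%) lower, with a median of 0.95. Their median was 2.18 in the gradient sums and -0.85 against F1 to F7, where 7 of 28 were lower and 0 higher. The families of histone genes are near-identical, so the reads of single members are uncertain. Nuclear pore genes (11 higher and 11 lower of 51), histone lysine enzymes (10 and 12 of 64) and ZNF genes (43 and 43 of 262) were close to even. Their shares were 21.6% and 21.6%, 15.6% and 18.75%, and 16.4% and 16.4%, near the 21.6% and 17.0% of all genes. Leaving out gradient A left 27 ZNF genes lower, leaving out gradient B 21, and leaving out transcriptome B left 28 higher. Without gradient B, 6 histone lysine enzymes were higher, and with F9 and F10 as the polysomes 7 nuclear pore genes were. Of the histone lysine enzymes, SUV39H1 was higher at 282 and 294 CPM against 10.9 to 19.1 CPM, and EZH2 was lower at 3.33 and 2.22 CPM against 47.7 to 61.6 CPM.

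Signalling genes were called often in both directions. Of 52 mTOR and MAPK genes, 21 (40.4%) were higher and 15 (28.8%) lower, 9 of them without gradient B, with a median of -0.02. TAB1, an activator of the kinase TAK1, had 133 and 212 CPM in the pools and 2.77 to 4.76 CPM in the transcriptomes, and LAMTOR3, which anchors mTORC1 to lysosomes, had 55.0 and 48.8 CPM against 482, 514 and 626 CPM. Of 55 RAB GTPases 15 were higher and 11 lower (7 without gradient B). The 15 and 11 were 27.3% and 20.0% of the RAB genes, near the 21.6% and 17.0% of all genes. Of 36 genes of actin and tubulin 11 (30.6%) were higher and 13 (36.1%) lower. Subunits of the Arp2/3 complex were split, with ARPC1B at 398 and 487 CPM against 27.0 to 51.0 CPM. ACTR3 had 1.16 and 2.05 CPM against 37.4 to 56.9 CPM.

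Profiles across the 10 fractions showed how the level of each list within a library changed along the gradient. Since every fraction was amplified and scaled on its own, they do not give the amount of mRNA in a fraction. Each gene was centred on its mean over the 20 GV fraction libraries, and the median over the list was taken. Cytosolic ribosomal proteins had 2 maxima, in F1 and F2, at 0.88 and 1.16 in gradient A and 1.44 and 0.94 in gradient B, and again in F10, at 0.435 and 0.66, with minima in F3 to F5. The gradients differed in the depth of that trough, at -0.425 in gradient A and -1.59 in gradient B. Mitochondrial genome genes reached 2.83 in F10 of gradient A and 1.36 in F10 of gradient B. Kinetochore genes reached 1.02 and 0.85 in F10, and lysosomal genes stayed within -0.57 and 0.43 throughout. Histone genes were at their maximum in F1, at 1.83 and 1.94.

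**Figure D4:**
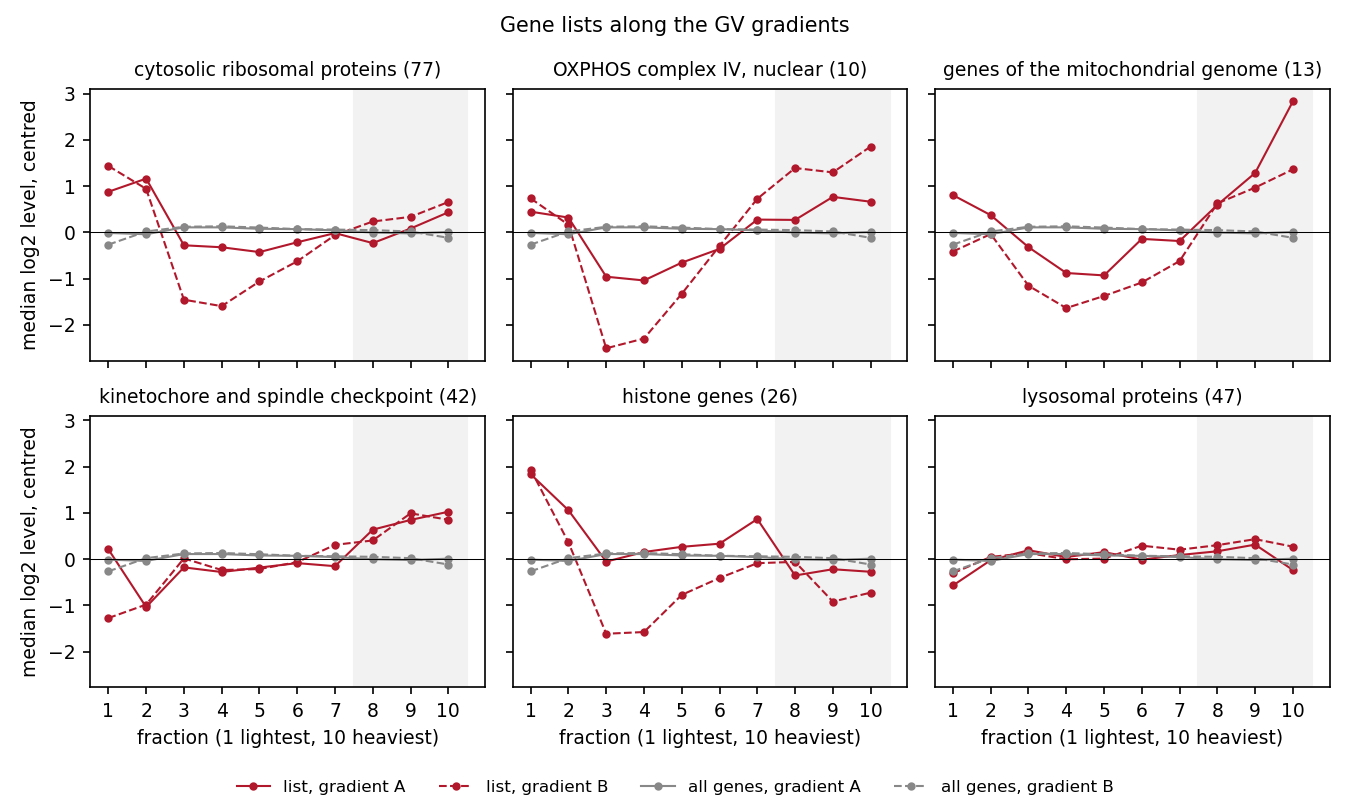
Median centred log2(CPM + 1) level of 6 gene lists (red, number of genes in brackets) and of 11741 genes together (grey) in fractions 1 to 10 of GV gradient A (solid) and gradient B (dashed), with F8 to F10 shaded. Complex IV, mitochondrial genome and kinetochore genes climb towards F10, histone genes start high in F1, and lysosomal genes stay near 0.

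Loading in GV oocytes was compared with that after maturation by testing the difference between the 2 log2 fold changes of pools over transcriptomes. Of 14612 genes, 510 (3.49%) had a higher ratio in GV than in MII oocytes and 1043 (7.14%) a lower one. Ratios in MII oocytes were called higher for 30.4% and lower for 26.2% of genes. For 42 of the genes with a different ratio the pools were called lower in GV and higher in MII oocytes, and for 7 the reverse held. Against 2-cell embryos the ratio was higher in GV oocytes for 211 genes (1.44%) and lower for 346 (2.37%). These counts rest on single libraries. Without gradient A they were 99 and 106, and without gradient B 105 and 148. Without transcriptome A, B or C the first was 139, 114 and 130, and without transcriptome B the second was 221. Against MII oocytes, leaving out gradient A gave 262 genes with a higher and 549 with a lower ratio, and leaving out gradient B or transcriptome C gave 327 with a higher ratio.

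Calls in the lists of oxidative phosphorylation and of both kinds of ribosome were mostly towards a lower ratio in GV than in MII oocytes. Among all genes tested, 7.14% had a lower ratio and 3.49% a higher one. Of 77 nuclear genes of oxidative phosphorylation, 28 had a lower ratio in GV oocytes and 2 a higher one, and their median log2 ratio was -0.205 in GV oocytes and 1.49 in MII oocytes. NDUFV1, for example, had a log2 ratio of 4.01 in GV and 6.28 in MII oocytes (difference -2.27 ± 0.39, SE, FDR 3.9e-04). Of 79 mitochondrial ribosomal proteins 36 had a lower ratio in GV oocytes and 1 a higher one, with medians of -0.60 and 0.78, and of 77 cytosolic ribosomal proteins 18 and 0, with medians of -0.39 and 0.66. The 2-cell medians were 0.98, 0.42 and 0.61 for these 3 lists.

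Single genes of the oocyte differed between the stages as well. ZP3 had a log2 ratio of 1.51 in GV and 4.92 in MII oocytes (difference -3.41, FDR 4.0e-04), and PLK1 had 3.52 and 6.26 (difference -2.75, FDR 0.0042). FIGLA had 0.27 and 3.67 (difference -3.41, FDR 0.032). DNMT1 went the other way, with a log2 ratio of 0.01 at the GV stage against -2.22 at MII and -2.22 at the 2-cell stage (differences 2.24 and 2.23, FDR 0.0022 and 0.0069). MOS, PKMYT1, NLRP5 and PADI6 did not pass the test against MII oocytes, with differences of 0.30, -0.25, -1.80 and -1.76. Of 51 nuclear pore genes, 8 had a higher ratio in GV than in MII oocytes and 4 a lower one, and of 39 genes of mRNA storage 4 and 0. The shares of all genes were 3.49% and 7.14%.

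**Figure D5:**
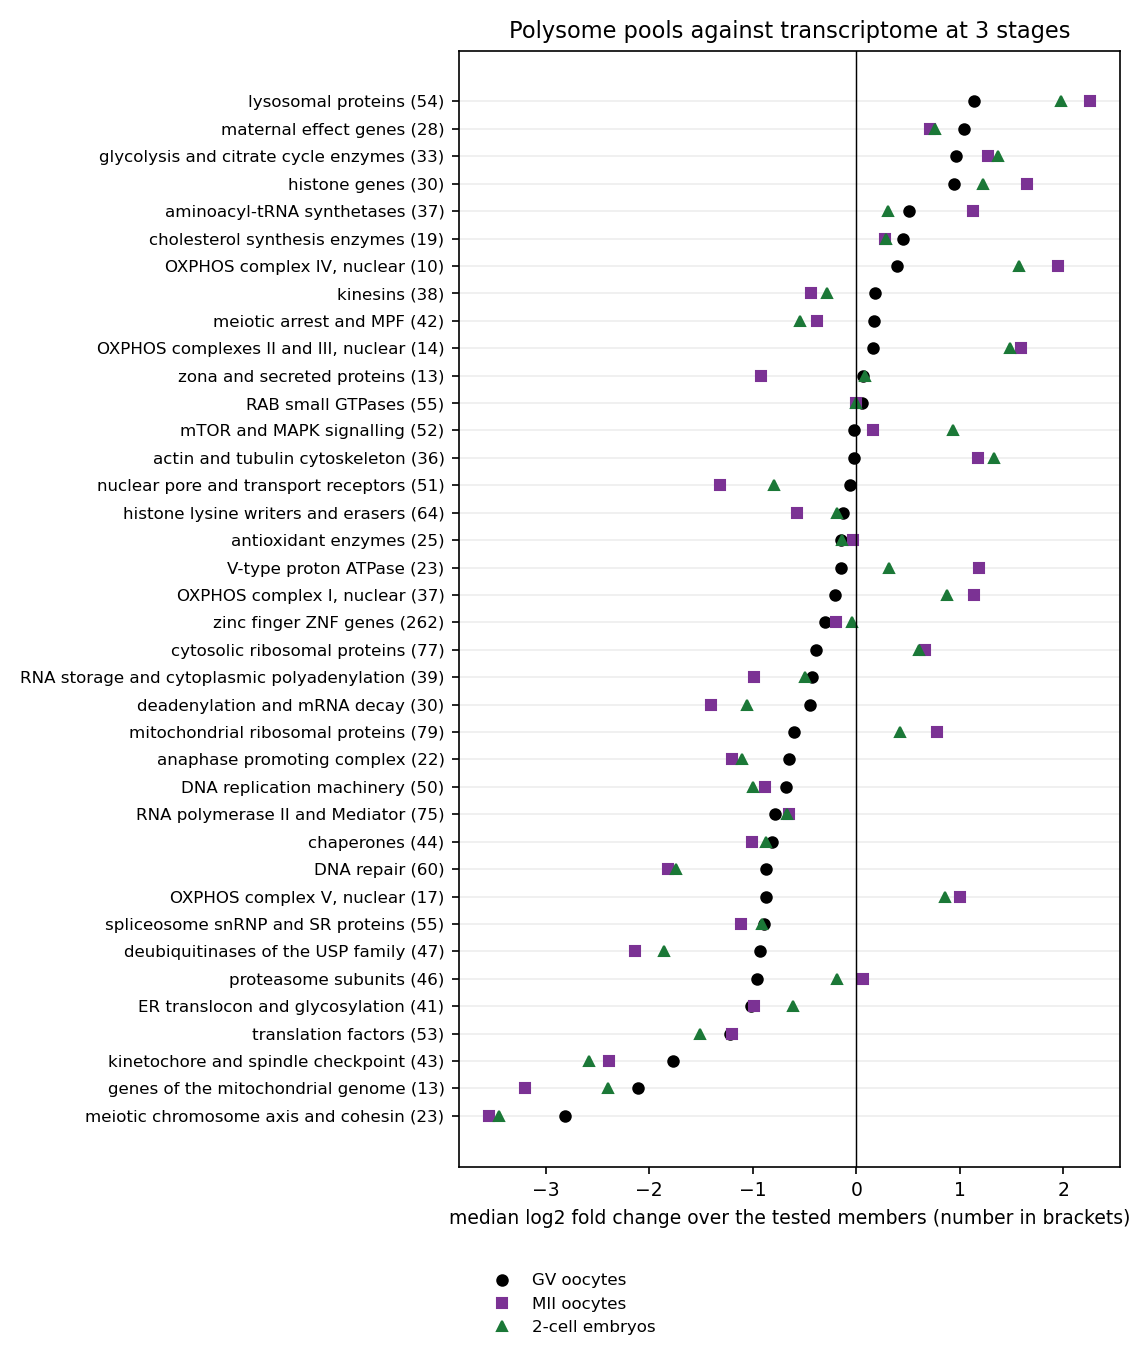
Median log2 fold change of polysome pools over the transcriptome for 38 gene lists (number of tested members in brackets) in GV oocytes (circles), MII oocytes (squares) and 2-cell embryos (triangles). For the oxidative phosphorylation and ribosomal protein lists the circles lie to the left of the other 2 symbols, and lists at the bottom lie left of 0 at all 3 stages.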

How the data were processed

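Libraries were made with a Smart-seq2-type kit and Nextera XT, and the authors deposited expected counts per gene symbol from Salmon (version not given in the sources used here), with the bovine annotation of Ensembl. The methods and the submitters' processing notes name different bovine builds, the latter UMD 3.1, and no coordinates were used. The table held 16706 symbols in 138 libraries, and 11.7% of values were not whole and were rounded. F8 to F10 were summed per gradient. Pools and transcriptomes of all 6 stages (12 pools and 18 transcriptomes, which share 1 estimate of the spread) were filtered with filterByExpr, scaled by TMM and tested by the two-sided quasi-likelihood test of edgeR 4.0.16 (R 4.3.3), with Benjamini-Hochberg adjustment (FDR). A call needs an FDR below 0.05 and an FC above 2. Pools were also tested against F1 to F7 with gradient as a block, and gradient sums against the transcriptomes. Alternatives included DESeq2 1.42.0, and sums without a library were added after the data were seen. Of 78 replicate pairs 0 were identical. The test was tried on simulated counts. Lists hold 38 gene functions and 3 marker sets, and members and lists were chosen with earlier results of these data known. Named were the 10 most extreme called genes per direction with no overlap and 50 CPM or more, the 2 highest and 2 lowest members of each list, any member of the oocyte, arrest and APC lists, markers, and 3 genes per direction for each stage difference. No sequences are shown. Depth per library is given in the report.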

Additional observations from a re-analysis of the deposited data

Results flagged for a closer look

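Results that differed between stages are given here as values, each from the test by edgeR of the difference between the log2 ratio of pools over transcriptomes in GV oocytes and that at the other stage. Against MII oocytes, 510 genes had a higher and 1043 a lower ratio in GV oocytes. Among genes at 50 CPM or more in at least 1 of the 4 groups, the highest differences were those of the antiviral membrane protein gene IFITM3, at 5.51 (log2 ratio 5.10 in GV and -0.41 in MII oocytes, FDR 9.5e-04), the endosomal gene DNAJC13, at 5.02 (-1.34 and -6.36, FDR 1.2e-04), and the kinase gene YES1, at 4.57 (-2.13 and -6.71, FDR 0.0068). The lowest were those of the ribosome biogenesis gene RRP1, at -9.17 (-3.31 and 5.86, FDR 0.0017), the mitochondrial GTPase gene MTG2, at -5.86 (3.52 and 9.38, FDR 2.0e-04), and LENG1, at -4.67 (-3.04 and 1.63, FDR 1.7e-05).

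Against 2-cell embryos, 211 genes had a higher and 346 a lower ratio in GV oocytes. The highest differences were those of the ciliary transport gene WDR35, at 6.48 (-1.11 in GV oocytes and -7.59 in 2-cell embryos, FDR 0.0094), RPAP3, at 4.39 (-2.68 and -7.07, FDR 0.0070), and POLR2B, which encodes a core subunit of RNA polymerase II, at 3.74 (-1.47 and -5.21, FDR 0.0038). The lowest were those of the SUMO ligase gene PIAS4, at -4.23 (-2.31 and 1.92, FDR 0.0038), BABAM1 of the BRCA1-A complex, at -3.56 (-4.29 and -0.73, FDR 1.4e-04), and TMBIM6, at -3.47 (-2.48 and 0.99, FDR 3.9e-05). Both tests share the GV libraries.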

How the results depend on the processing

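Counts of genes higher and lower in GV pools were 3565 and 2934 with the likelihood ratio test, 3187 and 3149 with DESeq2, 2426 and 2188 with F9 and F10 as polysomes and 4182 and 3295 with the 5 GV libraries alone, a fit in which the median of all genes shifted to 0.11 log2. Leaving out 1 library gave 2408 to 2759 genes higher and 1556 (without gradient B) to 2198 lower. The likelihood ratio test gave 822 genes with a higher ratio in GV than in MII oocytes, 410 with a higher ratio than in 2-cell embryos and 595 with a lower one. That last count was 226 with no filter on low counts and 230 with no TMM factors. Leaving out 1 library gave 262 (without gradient A) to 369 genes with a higher ratio in GV than in MII oocytes, and 327 without gradient B or transcriptome C. It gave 549 (without gradient A) to 892 genes with a lower ratio. Against 2-cell embryos each of the 5 libraries moved the first count by over 1.5 times, to 99 to 139, and the second was 106 without gradient A, 148 without gradient B, 221 without transcriptome B and at most 263. A lone pool was assumed to vary like the other groups. Whether library letters pair the samples is not known, and they were not used as a block. Correlations of deviations between a pool and the transcriptome of the same letter were -0.0541 and -0.0217 at the GV stage. With 2 pools, whose deviations mirror each other, these values cannot settle the pairing. The fit with a replicate block called 2928 genes higher and 2316 lower. Of 230 called named genes 175 kept their call in every alternative run, and 13 of 38 list medians changed sign at least once. Leaving out a gradient left no test for pools against F1 to F7. Without the gradient block that test called 1369 higher and 984 lower. The cause of these shifts was not tested, and 2 pools limit the precision of every call.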
